A study of Mus musculus with 28 samples.

Results

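A set of growth factor genes that macrophages can supply to injured tissue were followed through caerulein-induced pancreatitis and its recovery in the mouse: Igf1, Vegfa, Pdgfa, Pdgfb, Tgfb1, Hbegf, Areg, Osm, Grn and Gdf15. They were chosen by name for their role in repair and are 10 of the 25301 genes in the expression table. RNA was sequenced from pancreatic macrophages isolated by flow cytometric sorting, in 28 libraries of 6 groups. All mice were wild-type C57BL/6J. NC, an abbreviation that the labels do not spell out, had 3 libraries, and D0 (day 0 of recovery) had 5. Mice with acute pancreatitis (AP) that then received phosphate-buffered saline (PBS) or lactate (Lac) gave 6 libraries each at day 1 and 4 each at day 3. The labels give neither the lactate dose, the age of the animals nor the surface markers of the sort, and leave unsaid whether each library is a different animal, so p-values measure only the spread between these libraries.

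Macrophages at a wound make secreted proteins that act on other cells. IGF-1 drives growth and survival, VEGF-A acts on blood vessels, and the PDGF chains recruit fibroblasts and the stellate cells that scar the pancreas. TGF-beta 1 drives matrix deposition and restrains inflammation, HB-EGF and amphiregulin stimulate epithelium through the EGF receptor, oncostatin M signals through gp130, progranulin is a secreted and lysosomal protein, and GDF15 is a cytokine released by stressed cells.

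All libraries were deep, with 33273303 to 41060490 fragments assigned to genes. Levels are in FPKM (fragments mapped to a gene, divided by its length and by the library's depth). The 12 macrophage markers, among them Adgre1, Csf1r and C1qa, summed to 7513 to 20843 FPKM per library, and each had a mean of at least 1 FPKM in every group. Markers of other cells were present as well: all 9 monocyte markers (sums of 601 to 5245) and all 7 B and plasma cell markers (17 to 2383) had a mean of at least 1 FPKM in every group. Acinar enzyme transcripts were also present, with sums over 10 markers from 327 to 614 FPKM at D0 and from 5157 to 8287 in NC. The day 1 libraries separated by the number in their label. Those numbered 5 and 6 had summed fibroblast and stellate cell markers of 25.5 to 32.1 FPKM with PBS and 29.2 to 40.4 with lactate, while those numbered 1 to 4 had 155 to 301 and 123 to 410. The labels do not say what the numbers stand for. For the 10 growth factor genes both sets are given below where they differ in a call. Calls of all other genes were not checked within these sets or with libraries left out. The PBS library numbered 5 also correlated least with its own group (median r = 0.947).

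The 10 transcripts covered a wide range of levels. Grn was among the most abundant transcripts of these cells, ranked 72 of all 25301 genes by its mean over libraries (779 FPKM), followed by Tgfb1 at rank 553 (113 FPKM) and Osm at rank 1670 (41.6 FPKM). Pdgfb, Igf1 and Gdf15 had means of 8.26, 5.50 and 5.06 FPKM. Vegfa, Areg, Hbegf and Pdgfa were low, at means of 1.99, 1.21, 0.927 and 0.780 FPKM. Areg rested on only 12 to 131 fragments per library and Hbegf on 20 to 200, against 27472 to 126206 for Grn. Between the highest and the lowest group mean, Igf1 differed 41.6-fold, Pdgfb 8.44-fold, Osm 6.29-fold and Gdf15 4.71-fold, while Tgfb1 differed 1.19-fold.

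**Figure D1:**
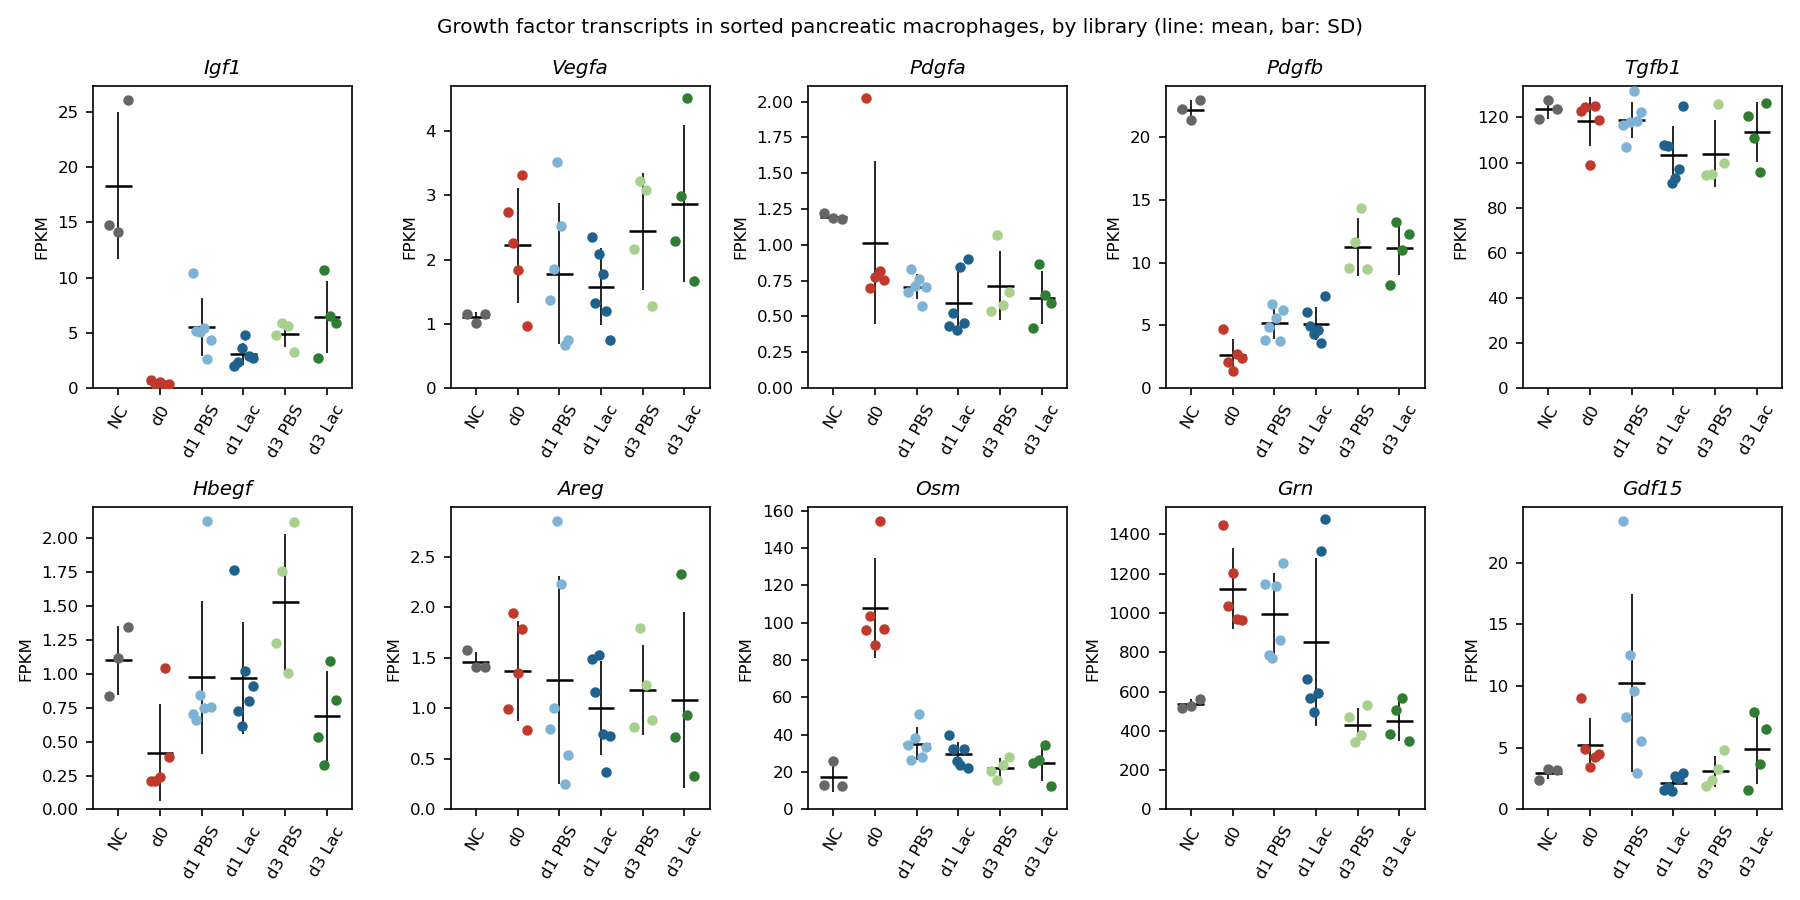
FPKM of each growth factor gene (y axis, linear, from 0) in the 6 groups (x axis), with 1 point per library, a line at the group mean and a bar of 1 SD. Igf1 and Pdgfb are highest in NC and lowest at day 0 (d0), Osm is highest at day 0, and Tgfb1 is nearly level.

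All 10 passed the filter on low values (at least 1 FPKM in at least 3 libraries), which kept 11960 genes. Pdgfa reached 1 FPKM in NC and in only 2 other libraries, so it passed mainly through NC. Differences below are on the log2(FPKM + 1) scale, which understates the change of low genes, and were tested with limma, with Benjamini-Hochberg adjustment over all 11960 genes and a threshold of 0.05. At D0 against NC, 5 of the 10 genes changed (Osm and Grn higher; Igf1, Pdgfb and Hbegf lower, the last turning sign under quantile normalization), where 61.1% of all genes tested were called (19.7% higher and 41.4% lower). From D0 to day 1 with PBS, 3 rose and 1 fell, against 62.9% of all genes (43% higher and 19.8% lower). From day 1 to day 3 with PBS 1 rose and 3 fell, against 34.3% (21.5% higher and 12.8% lower). At day 3 with PBS, 2 of 10 were still lower than NC, against 21.2% (10.3% higher and 10.9% lower). No such count sets the 10 genes apart from the rest. The median difference of the 10 genes was -0.07, -0.07, -0.04 and -0.23 in these comparisons in turn, and that of all genes -0.22, 0.19, 0.10 and 0.09. Lactate against PBS changed 1 of 10 at day 1, downwards, where 9.72% of all genes were called (5.16% higher and 4.56% lower). At day 3 it changed 0 of 10, against 0.376% (0.192% higher and 0.184% lower), with 1 of the 10 at an unadjusted p under 0.05 and 0 called by limma's voom on the fragments. The lactate effect itself was higher at day 3 than at day 1 for 1 of 10, against 10.7% (4.76% higher and 5.94% lower). Successive comparisons share groups, so they are not independent of each other.

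**Figure D2:**
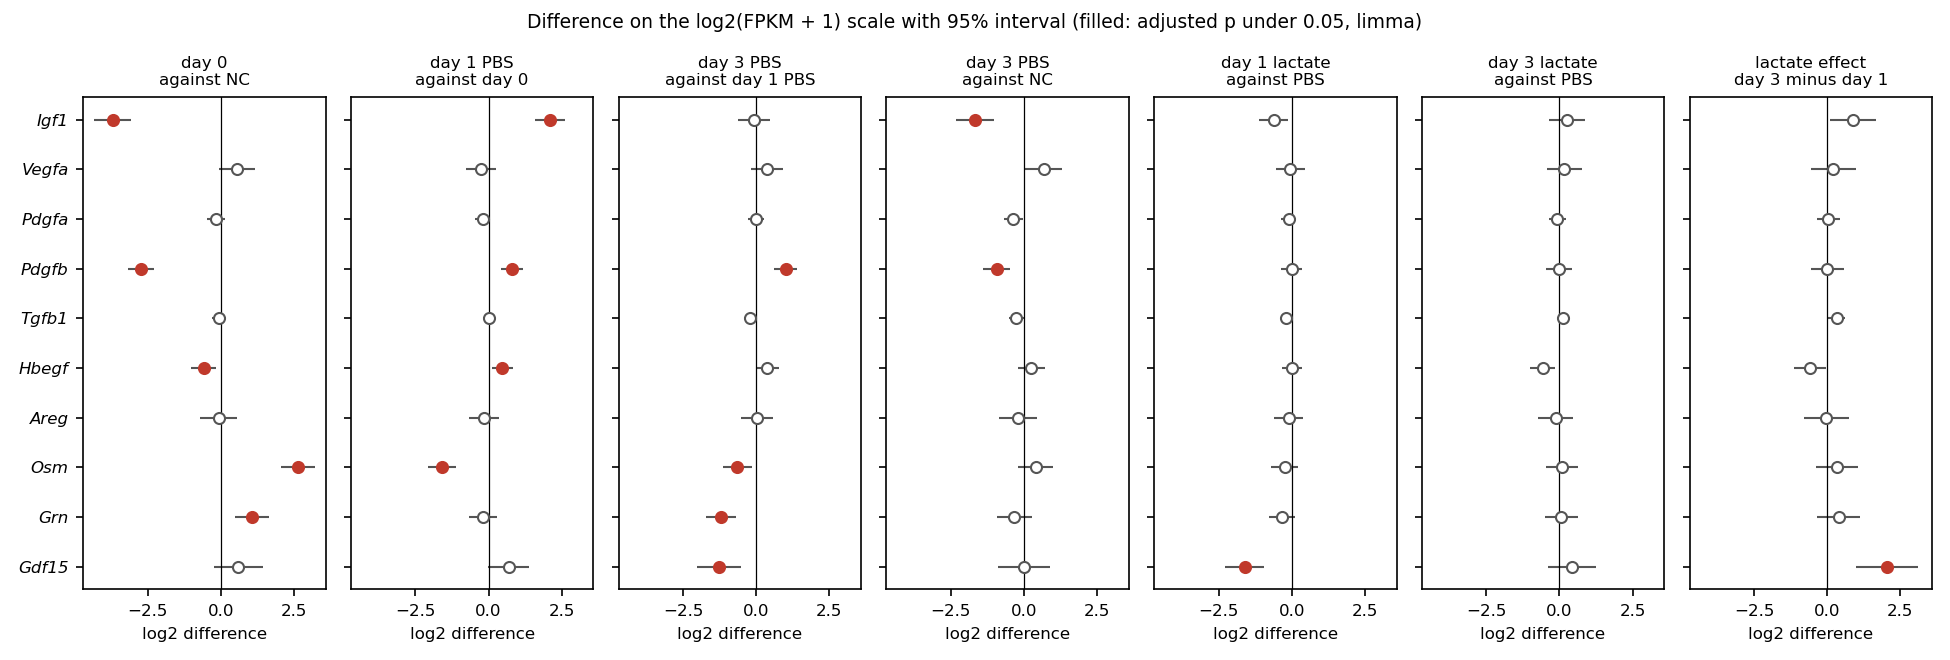
Difference of each gene on the log2(FPKM + 1) scale (x axis) in the 7 comparisons (panels), with its 95% interval; filled points passed an adjusted p of 0.05 in limma. The widest shifts are those of Igf1, Pdgfb and Osm at day 0, and Gdf15 is the only filled point in the day 1 lactate panel.

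Igf1 (NCBI Gene 16000), the ligand of the IGF-1 receptor, was nearly lost at D0 and came back only in part. NC libraries had 14.8, 14.2 and 26.1 FPKM, and D0 libraries 0.695, 0.373, 0.519, 0.263 and 0.355. The D0 values were still measured from 92 to 242 fragments. No D0 library came near NC, and the fall was -3.70 (SE 0.30, adjusted p = 3.09e-10). At day 1 with PBS the lowest library had 2.58, the median was 5.11 and the highest 10.4 FPKM. All 6 lay above every D0 library, a rise of 2.09 (SE 0.25, adjusted p = 1.91e-07). Day 3 PBS libraries had 4.80, 5.90, 5.57 and 3.27 FPKM. They overlapped those of day 1 (difference -0.08, 95% interval -0.63 to 0.48) and lay below all NC libraries by -1.69 (SE 0.32, adjusted p = 0.000498). In order of group means, NC was followed by day 3 lactate, day 1 PBS, day 3 PBS, day 1 lactate and D0, and only the first and the last step of that order separated groups without overlap.

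Lactate libraries of day 1 had a lowest Igf1 level of 2.01, a median of 2.83 and a highest of 4.82 FPKM, overlapping those with PBS. The difference of -0.62 (SE 0.24) missed the threshold over all 6 libraries of each arm (adjusted p = 0.101). Within the libraries numbered 1 to 4, a subset chosen after the data were seen, it was -0.84 with an adjusted p of 0.0311, and within those numbered 5 and 6 it was -0.19 with an adjusted p of 1.00. Without the PBS library numbered 5 it was -0.77 with an adjusted p of 0.021. At day 3 the lactate libraries had 2.73, 10.7, 6.49 and 5.90 FPKM, on both sides of the PBS range. The lactate effect at day 3 minus that at day 1 was 0.87 (SE 0.38, adjusted p = 0.137), and it passed the threshold without the day 1 PBS library numbered 5 (1.03, adjusted p = 0.048) or the day 3 lactate library numbered 1 (1.17, adjusted p = 0.0412). It was 1.09 (adjusted p = 0.0468) with the day 1 libraries numbered 1 to 4 and 0.44 (adjusted p = 0.817) with those numbered 5 and 6.

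The genes around IGF-1 moved too. Igfbp4, an IGF-binding protein, fell from 145 ± 24.6 FPKM (SD, n = 3) in NC to 4.60 ± 0.50 (n = 5) at D0, a difference of -4.69 (SE 0.34, adjusted p = 3.81e-11), and rose again by 3.63 at day 1. Igfbp6 went the other way, from 3.86 ± 1.26 to 30.3 ± 5.96 FPKM. Transcripts of the IGF-1 and insulin receptors, Igf1r and Insr, fell at D0 by 1.14 each on the log2 scale. Igf2r, the receptor that clears IGF-2 and carries lysosomal enzymes, rose by 1.91. The 3 genes whose level followed Igf1 most closely over the 28 libraries, by Pearson correlation of log2(FPKM + 1) and without a test, were Plekhg5, Hpgd and Chp2 (r = 0.96 each). Hpgd, which degrades prostaglandins, fell from a mean of 115 FPKM in NC to 0.730 at D0. The libraries behind this and the likeness values below share 6 groups that differ in level and in cell content.

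Vegfa (NCBI Gene 22339), the main angiogenic ligand, was low throughout and varied within groups. NC libraries had 1.16, 1.01 and 1.14 FPKM, and D0 libraries 2.75, 2.26, 1.84, 3.31 and 0.958. Of the 5 D0 libraries 4 lay above NC and 1 below, and the difference of 0.57 (SE 0.30) missed the threshold (adjusted p = 0.104). Without the D0 library numbered 5 it was 0.73 with an adjusted p of 0.0381. Day 3 PBS libraries, at 2.17, 3.22, 3.09 and 1.28 FPKM, all lay above NC, but the difference of 0.67 (SE 0.31) missed it as well (adjusted p = 0.127). Both passed when only the 2 groups compared were fitted (adjusted p = 0.0405 and 0.0451). The D0 difference also passed with quantile normalization (1.14, adjusted p = 0.000866) and median-ratio scaling (0.72, adjusted p = 0.0348). It passed with the acinar or lymphocyte marker level as a covariate (adjusted p = 0.0177 and 0.0250), although neither marker sum overlapped between D0 and NC. With the acinar covariate the day 3 difference passed too (adjusted p = 0.0419). Neither the D0 nor the day 3 difference passed in limma's voom on the fragments (adjusted p = 0.159 and 0.188). Day 1 PBS libraries ran from 0.665 through a median of 1.61 to 3.52 FPKM. Their difference from D0 was -0.26 (adjusted p = 0.372), and -0.67 (adjusted p = 0.0119) with quantile normalization. The libraries numbered 5 and 6 of both arms were at the low end, at 0.665 and 0.747 FPKM with PBS and 1.2 and 0.754 with lactate. With only those 2 PBS libraries, Vegfa was lower at day 1 than at D0 by -0.87 (adjusted p = 0.02) and higher at day 3 than at day 1 by 0.97 (adjusted p = 0.0238). With those numbered 1 to 4 both differences were 0.05 (adjusted p = 0.863 and 0.887). Lactate values at day 1 (0.754 to 2.36 FPKM) lay inside the PBS range, and those of day 3 were 2.30, 2.99, 4.51 and 1.66 FPKM. Both lactate differences had intervals that span 0 (-0.53 to 0.44 and -0.44 to 0.75).

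Among 12 hypoxia response genes, which share a pathway with Vegfa, 6 rose and 2 fell at D0, where 19.7% of all genes rose and 41.4% fell, with a median difference of 0.59 against -0.22 over all genes. Hif1a, the hypoxia-inducible factor subunit, went from 31.3 ± 5.52 FPKM in NC to 98.7 ± 11.3 at D0, and the glycolytic enzymes Pgk1, Ldha and Hk2 rose by 1.24, 0.96 and 0.75. At day 1 with PBS 1 of these 12 rose and 5 fell, Hif1a by -1.43. Lactate changed none of the 12 at either day, where 9.72% of all genes were called at day 1 and 0.376% at day 3. Vegfb, a paralog of Vegfa, fell from 11.1 ± 0.794 to 1.78 ± 0.762 FPKM at D0 (-2.15, adjusted p = 1.05e-08) and was 7.27 ± 2.24 at day 1.

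Pdgfb (NCBI Gene 18591) and Pdgfa (NCBI Gene 18590), the chains of platelet-derived growth factor, followed different courses. Pdgfb was tight in NC at 22.2, 21.4 and 23.0 FPKM, and D0 libraries had 4.67, 2.07, 1.35, 2.67 and 2.39. All D0 values lay far under NC, with a fall of -2.74 (SE 0.22, adjusted p = 1.85e-10). Recovery was stepwise. With PBS the day 1 libraries ran from 3.74 through a median of 5.22 to 6.67 FPKM, 4 of 6 above every D0 library, a rise of 0.80 (SE 0.18, adjusted p = 0.000573). That rise held when each library was left out in turn (0.66 to 0.97, highest adjusted p = 0.00336). The threshold was missed after quantile normalization (0.41, adjusted p = 0.0523) and when lymphocyte markers entered the limma fit (0.65, adjusted p = 0.150). Day 3 PBS libraries, at 9.53, 11.6, 14.4 and 9.51 FPKM, lay above all 6 of day 1, a further rise of 1.00 (SE 0.19, adjusted p = 0.000637). They remained below every NC library by -0.94 (SE 0.23, adjusted p = 0.00513).

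Pdgfb was level between the arms. The lactate libraries of day 1 ran from 3.62 through a median of 4.76 to 7.31 FPKM, and those of day 3 had 8.20, 13.2, 11 and 12.3. Differences from PBS were -0.01 on both days, with 95% intervals of -0.36 to 0.35 and -0.45 to 0.43. Trim36, Trerf1 and Il1rl1 followed Pdgfb most closely (r = 0.95, 0.93 and 0.92 over the same libraries). Il1rl1, the receptor for IL-33, is also a marker of innate lymphoid and mast cells. Pdgfc, a related chain, fell by 1.62 on the log2 scale at D0 and rose by 1.34 at day 1.

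Pdgfa was near 1 FPKM. NC libraries had 1.22, 1.19 and 1.18 FPKM, and D0 libraries 2.03, 0.701, 0.776, 0.814 and 0.757. The first D0 library lay above NC and the other 4 below, and the difference was -0.16 (SE 0.15, adjusted p = 0.361). Without that library it was -0.32 with an adjusted p of 0.0242, and quantile normalization turned it to 0.49 (adjusted p = 0.00603), so no direction is given. The 2 PBS groups ran from 0.569 to 0.830 FPKM at day 1 and from 0.537 to 1.07 at day 3, and the 2 lactate groups from 0.403 to 0.904 and from 0.418 to 0.863. Lactate differences were -0.11 (95% interval -0.35 to 0.13) and -0.07 (-0.37 to 0.23).

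Tgfb1 (NCBI Gene 21803) was the steadiest of the genes. NC libraries had 119, 128 and 124 FPKM, and D0 libraries 123, 125, 99.1, 125 and 119. Day 1 libraries ran from 107 through a median of 118 to 132 FPKM with PBS and from 90.8 through 102 to 125 with lactate. Day 3 libraries had 94.6, 95.1, 126 and 99.8 FPKM with PBS and 121, 111, 95.9 and 126 with lactate. The groups overlapped in every comparison and none of the 7 differences passed the threshold. The interval at D0 against NC was -0.30 to 0.17, which leaves out changes of the size measured for Osm or Igf1. Under quantile normalization that difference was -0.34 and passed (adjusted p = 0.0231). Under median-ratio scaling the difference between day 3 and day 1 PBS was -0.31 and passed (adjusted p = 0.0349). The day 1 lactate difference of -0.21 (SE 0.09) had an adjusted p of 0.146, and of 0.038 (difference -0.26) without the lactate library numbered 6. Leaving out the day 3 PBS library numbered 3 brought the difference between day 3 and day 1 PBS to -0.30 (adjusted p = 0.0316) and that from NC to -0.35 (adjusted p = 0.0368). The lactate effect at day 3 minus that at day 1, 0.33 over all libraries (adjusted p = 0.125), passed without that library (0.43, adjusted p = 0.0432) or the day 1 lactate library numbered 6 (0.39, adjusted p = 0.0452).

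TGF-beta is secreted in a latent form that other proteins activate. Thbs1, whose product thrombospondin 1 activates latent TGF-beta, went from 8.70 ± 4.73 FPKM in NC to 281 ± 62.6 at D0 (4.93, adjusted p = 2.71e-09), and fell by 2.03 on the log2 scale from day 1 to day 3 with PBS. Tgfbi, a TGF-beta-induced matrix protein, went from 378 ± 22 to 1776 ± 176 FPKM at D0 and to 441 ± 73.0 at day 1. Over the 13 tested of 15 listed TGF-beta and oncostatin M response genes, 5 rose and 2 fell at D0, and 4 rose and 6 fell at day 1 with PBS, where 61.1% and 62.9% of all genes were called, with medians of 0.07 and -0.03 against -0.22 and 0.19 over all genes. The genes most like Tgfb1 were Pex14, Akt1 and Cnpy3 (r = 0.83, 0.81 and 0.77).

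The EGF receptor ligands Hbegf (NCBI Gene 15200) and Areg (NCBI Gene 11839) were both low. Hbegf libraries had 0.839, 1.12 and 1.35 FPKM in NC and 0.208, 0.209, 0.237, 1.05 and 0.390 at D0. Of the D0 libraries 4 lay below NC and the one numbered 4 inside its range. Hbegf fell at D0 by 0.59 on the log2 scale (SE 0.21, adjusted p = 0.0184) and rose by 0.47 at day 1 with PBS (SE 0.18, adjusted p = 0.0228), but quantile normalization turned both signs, to 0.07 and -0.07. The fall also missed the threshold without the NC library numbered 3 (adjusted p = 0.0831), and the rise without the day 1 PBS library numbered 5 (0.0729) or without D0 libraries 1, 2 or 3 (0.0580, 0.0582 and 0.0545). The day 1 PBS libraries ran from 0.657 through a median of 0.755 to 2.12 FPKM, the highest being the one numbered 5. With the libraries numbered 1 to 4 the rise was 0.33 (adjusted p = 0.107), and with those numbered 5 and 6 it was 0.76 (adjusted p = 0.017).

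Day 3 gave the widest separation of the arms for Hbegf. PBS libraries had 1.23, 1.76, 1.01 and 2.12 FPKM and lactate libraries 0.534, 0.329, 1.10 and 0.804. Of the 4 lactate libraries 3 lay below all PBS libraries. The difference of -0.58 (SE 0.20, 95% interval -1.0 to -0.16) did not pass adjustment over all genes (adjusted p = 0.153). At day 1 the difference was 0.02 (SE 0.17). The lactate effect at day 3 minus that at day 1 was -0.59 (SE 0.26, adjusted p = 0.144), and -0.77 with an adjusted p of 0.0318 when only the day 1 libraries numbered 1 to 4 were used, but -0.24 with an adjusted p of 0.882 with those numbered 5 and 6. Without the day 1 PBS library numbered 5 that value was -0.74 (adjusted p = 0.0283), and the difference between day 3 and day 1 with PBS went from 0.37 (adjusted p = 0.121) to 0.51 (adjusted p = 0.0179). That difference was 0.52 (adjusted p = 0.0297) with the libraries numbered 1 to 4 and 0.09 (adjusted p = 0.824) with those numbered 5 and 6.

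Areg libraries had 1.57, 1.41 and 1.41 FPKM in NC and 0.994, 1.94, 1.35, 1.78 and 0.782 at D0. Day 1 libraries ran from 0.249 through a median of 0.900 to 2.85 FPKM with PBS and from 0.373 through 0.952 to 1.53 with lactate. Day 3 libraries had 0.816, 1.80, 1.23 and 0.881 FPKM with PBS and 0.717, 2.33, 0.938 and 0.327 with lactate. The groups overlapped in every comparison, and no difference over all libraries passed the threshold. Under quantile normalization, however, the difference of day 1 PBS from D0 was -0.61 (adjusted p = 0.0206). With only the day 1 PBS libraries numbered 5 and 6, at 0.249 and 0.541 FPKM, Areg was lower than at D0 by -0.75 (adjusted p = 0.0305), and with those numbered 1 to 4 the difference was 0.15 (adjusted p = 0.586). With so few fragments the intervals are wide, for example -0.70 to 0.54 at D0 against NC. Within groups, once each group's mean was removed, Areg and Vegfa went together over the 28 libraries (r = 0.76, a description without a test). Il1b was among the 3 genes most like each of them (r = 0.69 with Areg and 0.64 with Vegfa), beside Fosl2 and Ets2 for Areg and Odc1 and Rgcc for Vegfa. Fosl2 and Ets2 encode transcription factors that growth factor and stress signals induce.

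Of the proteins that release or receive these EGF family ligands, Rhbdf2, which carries the sheddase ADAM17 to the cell surface, rose at D0 from 10.5 ± 0.756 to 29.9 ± 1.84 FPKM (1.43, adjusted p = 2.28e-09) and fell by 1.17 at day 1. The related Rhbdf1 went the other way, from 6.75 ± 1.69 FPKM in NC to 0.405 ± 0.0897 at D0. Egfr itself was at 1.95 ± 0.553 FPKM in NC and 0.0349 ± 0.0169 at D0. It reached 1 FPKM only in NC and so passed the filter through that group alone, and no test is given.

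The 250 bases before the start site of the transcript were searched for 6 motifs on both strands in the 4 genes whose window holds no annotated exon (Areg, Tgfb1, Gdf15 and Vegfa), using the RefSeq promoters of GRCm38.p6. The motifs were AP-1 (TGANTCA, in 6.75% of all 32851 promoters of this length), E-box (CACGTG, 6.02%), its CLEAR extension (TCACGTGA, 0.785%, which contains the E-box), the hypoxia core (ACGTG, 16.6%, also part of the E-box), the cAMP response element (TGACGTCA, 1.55%) and the amino acid response element (TGATGNAA, 3.45%). The only match was a cAMP response element in the Areg window, from position -61 to -54 relative to the start. That window (chr5:91139349-91139598, plus strand) is shown with the element in capitals, and the Gdf15 window (chr8:70632457-70632706, minus strand, written 5′ to 3′ along the gene) is shown because Gdf15 is the gene that differed with lactate; it held none of the 6 motifs.
Areg: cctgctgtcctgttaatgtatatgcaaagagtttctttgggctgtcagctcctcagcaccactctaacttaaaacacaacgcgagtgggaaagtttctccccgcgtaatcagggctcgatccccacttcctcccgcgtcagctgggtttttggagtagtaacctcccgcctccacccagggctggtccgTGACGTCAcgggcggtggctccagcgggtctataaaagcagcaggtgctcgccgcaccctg
Gdf15: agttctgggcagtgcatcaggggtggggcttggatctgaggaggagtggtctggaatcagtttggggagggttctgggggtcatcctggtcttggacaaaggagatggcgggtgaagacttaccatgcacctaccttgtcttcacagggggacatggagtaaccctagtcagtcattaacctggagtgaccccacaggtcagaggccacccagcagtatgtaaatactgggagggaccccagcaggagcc
A match to these letters is a description of the sequence, and its use in these cells was not tested.

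Osm (NCBI Gene 18413), the gp130 cytokine oncostatin M, peaked at D0. NC libraries had 13, 26.1 and 12.3 FPKM, and D0 libraries 96.3, 104, 87.8, 154 and 96.7. All D0 libraries lay above NC, and Osm rose by 2.63 (SE 0.28, adjusted p = 1.94e-08). With PBS the day 1 libraries ran from 26.4 through a median of 33.8 to 51.2 FPKM, all under every D0 library, a fall of -1.59 (SE 0.23, adjusted p = 2.67e-06). Day 3 PBS libraries had 20.6, 15.8, 23.7 and 28.3 FPKM, 3 of 4 below all of day 1. That last fall of -0.65 (SE 0.25) was just past the threshold (adjusted p = 0.0436). It was lost without any one of the day 1 PBS libraries 1, 3, 4 or 6 (0.0667, 0.0684, 0.110 and 0.0601) or of the day 3 libraries 1, 2 or 3 (0.0935, 0.160 and 0.0627). With the day 1 libraries numbered 1 to 4 the fall was -0.73 (adjusted p = 0.0399), and with those numbered 5 and 6 it was -0.48 (adjusted p = 0.308). By day 3 Osm overlapped NC (difference 0.40, SE 0.29, adjusted p = 0.334).

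Lactate left no called difference in Osm. Day 1 lactate libraries ran from 22 through a median of 29.3 to 40.1 FPKM and day 3 lactate libraries had 24.7, 26.6, 34.7 and 12.4. Differences from PBS were -0.24 (95% interval -0.70 to 0.21) and 0.09 (-0.46 to 0.65). Socs3, an inhibitor that gp130 signals induce, was 262 ± 81.5 FPKM at day 1 with PBS and 164 ± 32.6 with lactate, a fall of -0.64 (SE 0.19, adjusted p = 0.0358), while Stat3 and Cish rose by 0.40 and 0.52. The genes most like Osm were Trib1, Prtn3 and Mmp19 (r = 0.98, 0.94 and 0.94). Prtn3 encodes a granule protease of neutrophils and young monocytes that also cleaves progranulin. It rose from 1.12 ± 1.51 FPKM in NC to 33.1 ± 9.23 at D0.

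Other cell content moved with the D0 changes. Among all genes tested, 19.7% were higher and 41.4% lower at D0 than in NC. Of 9 monocyte markers 8 were higher at D0 than in NC, with sums of 3865 to 5245 FPKM against 788 to 950. Of 10 tested of 11 neutrophil markers 6 were higher and 1 lower, with sums of 369 to 877 against 101 to 229. All 7 B and plasma cell markers and 9 of 10 acinar markers were lower, with B and plasma cell sums of 17.0 to 66.2 FPKM against 422 to 509. Of 13 tested of 14 T, NK and innate lymphoid cell markers 11 were lower, with sums of 12 to 44.8 against 113 to 176. All 8 dendritic cell markers were lower (25.4 to 59.4 FPKM against 194 to 250). Of 7 tested of 8 endothelial markers 5 were lower and 0 higher, with sums of 8.35 to 14.8 FPKM against 24.1 to 36.2. Of the 12 macrophage markers 3 were higher and 3 lower, with sums of 11880 to 13072 FPKM against 15586 to 17113. Of 2 tested of 8 erythroid and platelet markers 1 was higher and 1 lower, with sums of 169 to 414 FPKM at D0 and 539 to 831 in NC. The part of any of these in the fall of Igf1 and Pdgfb or the rise of Osm was not tested. From D0 to day 1 with PBS, 7 of the 8 dendritic cell and all 13 tested T, NK and innate lymphoid cell markers rose. From there to day 3, 8 and 10 of these rose, and 0 fell in either step. Over all genes 43% and 21.5% rose. All 9 monocyte markers fell from D0 to day 1 with PBS, where 19.8% of all genes fell. The part of these in the rises of Igf1 and Pdgfb was not tested. At day 3 with PBS against NC, 10 of 12 macrophage markers were lower and 0 higher. Of 13 tested T, NK and innate lymphoid cell markers 10 were higher and 1 lower there. Over all genes 10.3% were higher and 10.9% lower in that comparison. The part of this cell content in the lower Igf1 and Pdgfb of day 3 was not tested. In RNA from a sorted population, fewer cells of a type and less RNA per cell cannot be told apart.

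Grn (NCBI Gene 14824), progranulin, was high in every library and highest early. NC libraries had 518, 526 and 564 FPKM, and D0 libraries 1448, 1033, 1205, 967 and 962. All D0 libraries lay above NC, a rise of 1.05 (SE 0.28, adjusted p = 0.00258). Grn stayed at that level at day 1 with PBS (lowest 773, median 999, highest 1254 FPKM; difference -0.19, 95% interval -0.67 to 0.29). Day 3 PBS libraries had 468, 344, 379 and 532 FPKM, below all 6 of day 1, a fall of -1.2 (SE 0.25, adjusted p = 0.00111) that left Grn at or under NC (difference -0.33, adjusted p = 0.434). The rise at D0 turned to -0.55 (adjusted p = 0.0524) once the lymphocyte marker level was a covariate, and was 0.48 (adjusted p = 0.448) with the acinar marker level, and neither marker sum overlapped between D0 and NC.

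At day 1 with lactate the libraries numbered 1 to 4 had 661, 568, 495 and 592 FPKM of Grn, below all 6 PBS libraries, and those numbered 5 and 6 had 1315 and 1480, above all 6. Over all libraries the difference was -0.33 (SE 0.22, adjusted p = 0.379). Within the libraries numbered 1 to 4 Grn was lower with lactate by -0.71 (adjusted p = 0.0048), and within those numbered 5 and 6 the difference was 0.42 (adjusted p = 1.00). The lactate effect at day 3 minus that at day 1 was 0.77 (adjusted p = 0.026) and -0.37 (adjusted p = 0.777) with these sets in turn, and 0.39 (adjusted p = 0.506) over all libraries. The macrophage marker sums of the same lactate libraries split the same way, from 7513 to 11465 FPKM in those numbered 1 to 4 and 15839.6 and 15899 in the other 2. Day 3 lactate libraries had 382, 506, 568 and 348 FPKM, within or just above the PBS range (difference 0.06, 95% interval -0.50 to 0.62).

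**Figure D3:**
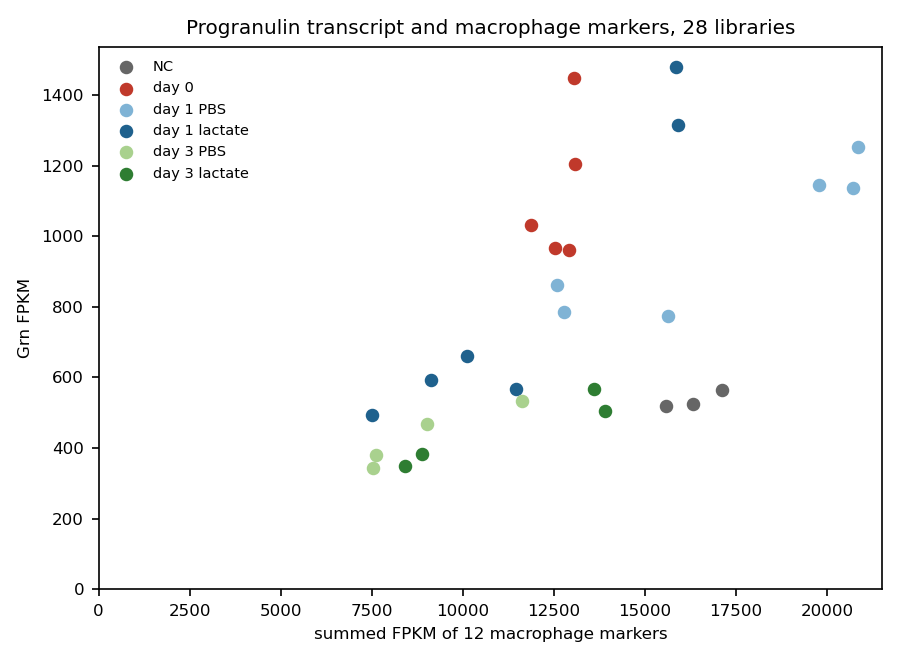
Grn FPKM (y axis, from 0) against the summed FPKM of 12 macrophage markers (x axis) in the 28 libraries, coloured by group. The day 1 lactate libraries fall into 4 with Grn of 495 to 661 and 2 with 1315 and 1480 FPKM, and the day 0 libraries lie above NC at a lower marker sum.

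Progranulin works with a set of lysosomal genes. Of 13 such genes 7 rose and 2 fell at D0, where 19.7% of all genes tested rose and 41.4% fell. At day 1 with PBS, when Grn was not called, 4 rose and 4 fell, where 43% rose and 19.8% fell. From day 1 to day 3 with PBS 10 fell and none rose, where 12.8% of all genes tested fell (median -0.91 against 0.10). Cathepsin D (Ctsd) went from 504 ± 48.1 FPKM in NC to 3303 ± 726 at D0, 1910.2 ± 476 at day 1 with PBS and 495 ± 83.5 at day 3. Cathepsin L (Ctsl) went from 36.2 ± 3.82 to 375 ± 62.6 FPKM at D0, and Gpnmb, a lysosomal glycoprotein of lipid-laden macrophages, from 1.95 ± 0.719 to 93.9 ± 58.4. From day 1 to day 3 Ctsd fell by 1.92, Ctsb by 1.65 and Ctsl by 1.56 on the log2 scale. Sort1, the sorting receptor that takes up progranulin, was 6.60 ± 0.967 FPKM at day 1 with PBS and 4.90 ± 1.23 with lactate (-0.38, SE 0.12, adjusted p = 0.0419). Over the 28 libraries Ctsb, Akr1a1 and Lamp1 were most like Grn (r = 0.97, 0.97 and 0.95). Of 12 macrophage markers 11 also fell between day 1 and day 3 with PBS, from sums of 12592 to 20843 FPKM to 7538 to 11619.8, and their part in the fall of Grn was not tested.

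Gdf15 (NCBI Gene 23886), the stress cytokine, was the one gene that differed with lactate. NC libraries had 2.39, 3.28 and 3.23 FPKM, and D0 libraries 9.0, 4.93, 3.48, 4.21 and 4.46. Every D0 library lay above NC, but the difference of 0.60 (SE 0.41) did not pass the threshold (adjusted p = 0.211). Leaving out each library in turn did not bring it past (adjusted p of 0.166 to 0.410). It did pass with quantile normalization (1.01, adjusted p = 0.0473) and when only D0 and NC were fitted (adjusted p = 0.0393). When acinar markers entered the fit it passed too (2.13, adjusted p = 0.00618), although their sums did not overlap between D0 and NC. Day 1 PBS libraries had 23.4, 7.53, 12.6, 9.59, 2.97 and 5.57 FPKM, and day 1 lactate libraries 1.61, 1.84, 1.52, 2.71, 2.45 and 2.96. All 6 lactate libraries lay below all 6 PBS libraries, although the highest of the one and the lowest of the other, 2.96 and 2.97 FPKM, nearly touched. The mean with PBS was 4.71 times that with lactate (10.3 ± 7.22 against 2.18 ± 0.608 FPKM, SD, n = 6 each). Gdf15 was lower with lactate by -1.61 (SE 0.32, 95% interval -2.28 to -0.95, adjusted p = 0.00917).

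The difference lay mostly in the libraries numbered 1 to 4. There PBS libraries had a mean of 13.3 ± 7.06 and lactate libraries of 1.92 ± 0.545 FPKM (SD, n = 4 each), a difference of -2.19 (adjusted p = 0.0001). Among the 2 of each arm numbered 5 and 6 the PBS libraries had 2.97 and 5.57 FPKM and the lactate libraries 2.45 and 2.96, a difference of -0.47 with an adjusted p of 1.00. The call held when each of these 12 libraries was left out in turn, with differences of -1.87 to -1.35 and adjusted p of 0.00013 to 0.0389. When the fit held only the 12 libraries of the 2 groups, the same difference of -1.61 had an adjusted p of 0.116.

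**Figure D4:**
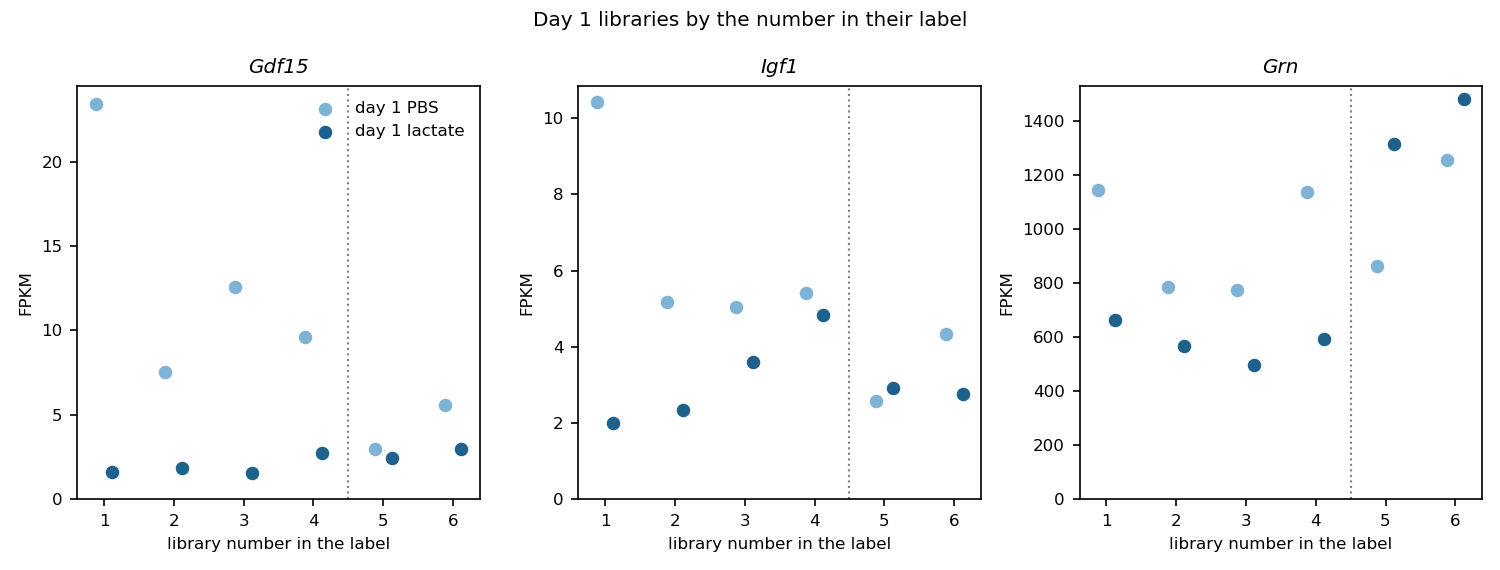
FPKM of Gdf15, Igf1 and Grn (y axes, from 0) in the day 1 libraries by the number in their label (x axis), with PBS in light and lactate in dark blue; a dotted line separates numbers 4 and 5. Gdf15 with PBS runs from 7.53 to 23.4 FPKM left of the line and is 2.97 and 5.57 right of it, and Grn with lactate is 495 to 661 left of it and 1315 and 1480 right of it.

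At day 3 the Gdf15 values with PBS overlapped those of NC. Day 3 PBS libraries had 1.90, 2.39, 3.30 and 4.78 FPKM, a fall from day 1 of -1.28 (SE 0.36, adjusted p = 0.0094) and a difference from NC of 0.00 (95% interval -0.88 to 0.89). The fall from day 1 was -1.73 (adjusted p = 0.000404) with the day 1 libraries numbered 1 to 4 and -0.37 (adjusted p = 0.52) with those numbered 5 and 6. Day 3 lactate libraries had 1.55, 7.89, 3.68 and 6.54 FPKM, overlapping PBS (difference 0.43, SE 0.40, adjusted p = 0.597). The lactate effect on Gdf15 thus differed between day 3 and day 1 by 2.04 (SE 0.51, adjusted p = 0.0139), by 2.62 (adjusted p = 0.000446) with the day 1 libraries numbered 1 to 4 alone and by 0.89 (adjusted p = 0.694) with those numbered 5 and 6 alone.

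The rise of Gdf15 from D0 to day 1 with PBS was 0.69 (SE 0.34, adjusted p = 0.0812) over all libraries. It was 1.14 (adjusted p = 0.00375) with the day 1 libraries numbered 1 to 4, -0.22 (adjusted p = 0.668) with those numbered 5 and 6, 0.94 (adjusted p = 0.0119) without the PBS library numbered 5 and 0.87 (adjusted p = 0.037) without the D0 library numbered 1. Within groups Gdf15 and Igf1 went together over the 28 libraries (r = 0.69, a description), and the day 1 PBS library numbered 1 was the highest of its group for both. Cerk, Tex2 and Pld3 were most like Gdf15 (r = 0.73, 0.73 and 0.72).

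Of 12 stress response genes, the kind of pathway that induces Gdf15, 3 fell with lactate at day 1 and none rose, where 4.56% of all genes fell and 5.16% rose: Atf3 (195 ± 62.4 FPKM with PBS, 111 ± 28.1 with lactate; -0.78, adjusted p = 0.0259), Ppp1r15a (-0.77, adjusted p = 0.0389) and Hmox1 (-0.67, adjusted p = 0.0488). The median of the 12 was -0.05, against 0.02 over all genes. Atf4, an upstream regulator, was 113 ± 13.5 FPKM with PBS and 109 ± 16.2 with lactate and was not called. At day 3 none of the 12 was called between the arms, where 0.376% of all genes were. Cell content also differed between the day 1 arms. Of 12 macrophage markers 4 were lower with lactate and none higher (sums of 7513 to 15899 FPKM against 12592 to 20843), and of 13 tested T, NK and innate lymphoid cell markers 3 were higher (183 to 528 against 105 to 352). Of 9 monocyte markers 3 were higher and 1 lower with lactate (1695 to 3048 FPKM against 938 to 2923). Of 8 dendritic cell markers 4 were higher and none lower with lactate (172 to 299 FPKM against 115 to 213). The part of these in the difference of Gdf15 was not tested.

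Related ligands of the same families were mostly low here: 9 of 25 passed the filter on low values. Of these 9, 0 rose and 3 fell at D0 (Vegfb, Pdgfc and the gp130 ligand Clcf1), and 5 rose and 0 fell at day 1 with PBS, with medians of -0.27 and 0.61. Over all genes 41.4% fell at D0 and 43% rose at day 1. Hgf, the hepatocyte growth factor, was 3.14 ± 0.648 FPKM at day 1 with PBS and 0.988 ± 0.253 at day 3 (-1.05, adjusted p = 0.000931). Csf1, the macrophage growth factor, was the 1 of the 9 that changed with lactate at day 1, from 3.38 ± 1.38 FPKM with PBS to 7.05 ± 1.47 (0.90, SE 0.19, adjusted p = 0.0101). Between these arms 9.72% of all genes were called. Of 22 tested of 28 listed receptors and co-receptors 3 rose and 9 fell at D0 (median -0.32), 10 rose and 6 fell at day 1 with PBS (0.17), and 4 rose and 5 fell from there to day 3 (-0.08). Of 19 tested of 24 proteins that process or bind the ligands 7 rose and 10 fell at D0 (median -0.59), 10 rose and 6 fell at day 1 (0.41), and 2 rose and 5 fell by day 3 (0.16). Over all genes 19.7% rose and 41.4% fell at D0, 43% and 19.8% at day 1, and 21.5% and 12.8% from there to day 3. Among the receptors, Kdr and Flt1, receptors for VEGF-A, were higher with lactate at day 1 by 1.08 and 0.76, and Sort1 was lower. The arms overlapped for both Kdr and Flt1. Kdr ran from 2.03 to 8.61 FPKM with lactate and from 0.816 to 7.19 with PBS. Flt1 ran from 1.55 to 3.19 FPKM with lactate and from 0.483 to 3.28 with PBS. Endothelial markers, of which Kdr is one, had 1 of 7 tested members higher with lactate and sums of 14.4 to 55.3 FPKM against 12.7 to 26.7. At day 3 no gene of these ligand, receptor and pathway lists was called between lactate and PBS, where 0.376% of all genes were.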

How the data were processed

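Each library was made from 10 ng of RNA, per the labels' protocols; libraries were placed in the 6 groups by their titles, which also give the replicate number. The authors deposited FPKM per gene and library, per the file headers. Per the submitters' processing notes, fastp and R 3.2.0 were used; of the aligner, the counting rule and the build, nothing is given in the sources used here. FPKM are shares of a library's fragments, so abundant RNA of one kind lowers other genes. Within a gene the values step by single fragments (100% whole, tolerance 0.0001), which gave the fragments per gene. No 2 libraries of a group were near-identical (chi-square over its degrees of freedom at least 24.5 in 55 pairs).

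limma 3.58.1 (R 4.3.3, trend and robust) was fitted to log2(FPKM + 1) of 11960 genes with at least 1 FPKM in at least 3 libraries, with a mean per group over all 28 libraries. P-values are two-sided and adjusted (Benjamini-Hochberg) over the 11960 genes, with 0.05 as the threshold. The script was tested on simulated data. Group values are mean FPKM ± SD. Python 3.11.15 with numpy 2.4.6 and pandas 2.3.3 made the summaries.

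The members and gene lists were chosen with earlier results of these data known. All 10 members are named, up to 4 called genes of a pathway list with the smallest p per comparison, and the 3 genes of highest Pearson correlation with each member among genes with a group mean of at least 5 FPKM, leaving out gene model symbols; Atf4 was added after its values were seen. Alternatives were the pseudocount, the filters, quantile and median-ratio scaling, leaving out digestive enzyme genes, marker levels as covariates, the replicate number as a block, only the groups compared, and each library left out. The day 1 subsets and limma's voom on the recovered fragments were added after the data were seen. Promoter sequences are RefSeq's for GRCm38.p6, with windows for 7 of the 10 genes.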

Additional observations from a re-analysis of the deposited data

Results flagged for a closer look

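The lactate effect on Gdf15 at day 3 minus that at day 1 was 2.04 on the log2(FPKM + 1) scale (SE 0.51, adjusted p = 0.0139 in limma). Of 50 sets of 4 to 6 libraries (10 genes in 5 groups), 9 held a library that stood far from the others by Dixon's criterion, which chance gives for about 1 in 20. At D0 these were Pdgfa at 2.03 FPKM and Gdf15 at 9.0 in the library numbered 1, Tgfb1 at 99.1 (the lowest) in number 3, and Hbegf at 1.05 and Osm at 154 in number 4. At day 1 they were Igf1 at 10.4 in the PBS library numbered 1, Hbegf at 2.12 in the PBS library numbered 5 and Hbegf at 1.77 in the lactate library numbered 1. At day 3 it was Tgfb1 at 126 in the PBS library numbered 3.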

How the results depend on the processing

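Of 1582 values of single genes under alternatives, 1503 kept their side of the threshold (120 of them uncalled values whose sign differed), 30 lost a call, 44 gained one and 5 were called before or after and changed sign. Those 5 were, with quantile normalization, Pdgfa and Hbegf at D0 against NC (0.49 and 0.071) and Hbegf at day 1 PBS against D0 (-0.065), and, once the lymphocyte marker level was a covariate, Grn at D0 against NC (-0.55) and at day 1 PBS against D0 (1.51, adjusted p = 9.6e-06 in limma). Quantile normalization shifted the all-gene median by 0.27 at D0 against NC, -0.23 at day 1 PBS against D0 and -0.11 at day 3 against day 1 PBS; median-ratio scaling moved it by 0.18, -0.17 and -0.09. The number of the 10 genes called became 8 at D0 against NC with quantile normalization, 2 at day 3 against day 1 PBS with the lymphocyte covariate, 0 for lactate at day 1 with only the groups compared, and 2 for the difference of the lactate effects with the acinar covariate. With the day 1 libraries numbered 1 to 4 it was 3 for lactate at day 1 and 4 for the difference of the lactate effects, and with those numbered 5 and 6 it was 0 for both. The cause was not tested. Leaving out each library in turn gave 4 to 6 genes called at D0 against NC, 3 to 4 at day 1 PBS against D0, 3 to 5 at day 3 against day 1 PBS, 2 to 3 at day 3 PBS against NC, 1 to 2 for lactate at day 1, 0 to 0 at day 3 and 1 to 3 for their difference. For lactate at day 1 the count was 2 without the PBS library numbered 5 or the lactate library numbered 6. For the difference it was 3 without that PBS library, and 2 without that lactate library, the day 3 PBS library numbered 3 or the day 3 lactate library numbered 1. limma's voom on the fragments changed no call.

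With the replicate number as a block the counts were 6, 4, 3, 3, 1, 0 and 1 in the same order; Vegfa was called at D0 and at day 3 PBS against NC (0.75 and 0.71, adjusted p = 0.00816 and 0.0352 in limma), and Osm from day 1 to day 3 was not (adjusted p = 0.0564). The numbers were not taken as pairs, since the labels do not say so and in no comparison did every same-numbered pair correlate above 0.1. For lactate against PBS at day 1 these correlations ran from -0.34 to 0.61 with a median of 0.42, against -0.01 between different numbers, and 2 of 6 libraries correlated best with their own number. Depth limits Areg and Hbegf most, with as few as 12 and 20 fragments in a library.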
